A study of Mus musculus with 6 samples.

Results

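Collagen genes were examined in the livers of mice that lack Vps15 in hepatocytes. The genes were chosen by name from the deposited table of normalized read counts, whose Ensembl identifiers were matched to mouse gene symbols: every protein-coding gene whose symbol begins with Col, a number, a and a number was taken, with no use of its values. The rule took 45 of 56305 genes in the table. Of these, 44 encode collagen alpha chains and 1, Col4a3bp, encodes the ceramide transfer protein and carries a collagen name only because its product was first described as a binding protein of a type IV chain, so it was kept out of all counts of chains. The 44 chains belong to 8 classes and lie on 15 chromosomes, and 25 of them passed a filter on low values, which asked that 3 or more of the 6 livers hold 20 or more normalized counts.

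Collagens are secreted proteins built from 3 alpha chains wound into a helix. The chains are hydroxylated and folded in the endoplasmic reticulum, exported in large carriers, trimmed outside the cell and cross-linked by lysyl oxidases. Fibrillar collagens such as types I and III form the cables that accumulate in liver fibrosis, type IV forms the sheets of basement membranes, type VI forms beaded filaments around cells, and FACIT collagens sit on the surface of fibrils. In liver, hepatic stellate cells, portal fibroblasts and the myofibroblasts that arise from them are the best known makers of fibrillar collagen, and hepatocytes are the best known makers of type XVIII, the precursor of endostatin.

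PolyA-enriched RNA of whole liver was sequenced in 3 WT and 3 Vps15LKO livers taken at Zeitgeber time 6 h, the middle of the light phase. The methods describe male mice of 5 weeks fed ad libitum, and Vps15LKO mice as AlbCre+;Vps15 f/f, in which Cre recombinase under the albumin promoter deletes Vps15 (gene Pik3r4), the regulatory subunit of class 3 PI3K, while the label WT gives no further allele. The albumin promoter acts in hepatocytes and in the embryonic precursors that also give rise to bile duct cells, so stellate, endothelial and immune cells keep the gene and their RNA is part of each library. The methods count an individual mouse as n in animal studies, while the labels only number the samples of a genotype. Each library held 16137093 to 18110223 reads on genes, and in whole-liver RNA more cells of a type and more RNA per cell cannot be told apart.

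Pik3r4 itself was at 508, 573 and 459.7 in WT and 341, 362 and 355 in Vps15LKO, a log2 fold change of -0.54 ± 0.11 (SE) with no overlap between the genotypes, but it was at 0.19 when libraries were scaled by their total reads instead. The paper states that the recombined locus still expresses a truncated Vps15 protein, and it reports depletion of Vps34 protein after the deletion in liver. Counts over the whole gene therefore do not measure the loss of Vps15. The choice of scaling matters for every modest decrease. The size factors recovered from the table ran from 0.742 to 0.801 in WT and from 1.23 to 1.41 in Vps15LKO for libraries of like depth, and total-read scaling moves the median log2 fold change of all genes from -0.02 to 0.70. It calls 10299 of 15430 genes higher (66.7%) and 1712 lower (11.1%), against 5163 and 5099 with the deposited scaling. Changes are therefore given relative to the deposited scaling, and for each named gene a call that is lost or turned under total-read scaling is given beside it.

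Most collagen chains detected in these livers had more transcript in Vps15LKO. Of the 25 chains past the filter, 21 were called higher and 4 lower by limma with Benjamini-Hochberg adjustment over 15430 genes, where a call needed an adjusted p below 0.05 together with a 1.2-fold difference or more. Over all genes tested, 66.5% were called, 33.5% higher and 33.0% lower. The median log2 fold change of the 25 chains was 2.42, against -0.02 over all genes tested. None of the 25 chains overlapped between the genotypes, a separation that 73.2% of all tested genes shared. Of those 25, Col4a4, Col6a6 and Col23a1 passed the filter only through the Vps15LKO livers and so had to differ, and counts over the chains that passed are a description of these chains and no support for a change of the family. Total-read scaling also called 21 chains higher, but it called only Col18a1 lower.

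**Figure D1:**
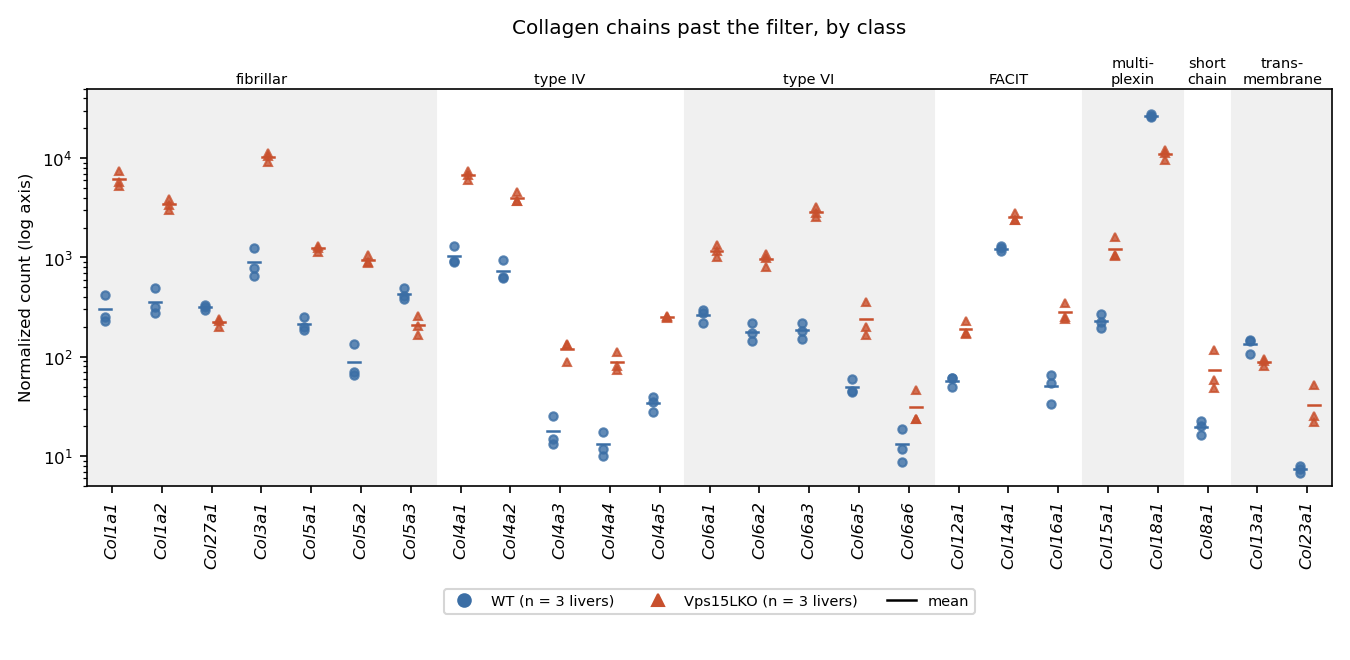
Normalized counts on a log axis of the 25 collagen chains past the filter, grouped by class, with a circle for each WT liver, a triangle for each Vps15LKO liver and a line at the mean of 3 livers. The triangles lie above the circles for 21 chains and below them for Col27a1, Col5a3, Col18a1 and Col13a1.

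The chain with the largest fold was fibrillar. Col1a1, the major chain of type I collagen, was at 229, 251 and 419 in WT and 5233, 5804 and 7342 in Vps15LKO (log2 fold change 4.39 ± 0.22 (SE), adjusted p = 1.61e-06), 20.9-fold higher. Its partner Col1a2 was at 274, 315 and 489 in WT and 3028, 3409 and 3840.5 in Vps15LKO (log2 fold change 3.29 ± 0.20 (SE), adjusted p = 3.87e-06). The lowest Vps15LKO liver therefore held several times the normalized count of the highest WT liver for both chains of type I collagen. Col3a1, the chain of type III collagen that forms thin reticular fibrils with type I, was at 656, 782 and 1239 in WT and 9145, 10525 and 11286 in Vps15LKO (log2 fold change 3.58 ± 0.21 (SE), adjusted p = 3.48e-06). In all 3 genes WT replicate 3 was the highest WT liver and Vps15LKO replicate 3 the highest Vps15LKO liver.

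Type V chains, which nucleate type I fibrils and set their width, did not move together. Col5a1 was at 198, 186 and 253 in WT and 1139, 1305 and 1255 in Vps15LKO (log2 fold change 2.54 ± 0.13 (SE), adjusted p = 1.61e-06), and Col5a2 was at 70.3, 65.0 and 133 in WT and 899, 889.8 and 1068 in Vps15LKO (log2 fold change 3.47 ± 0.25 (SE), adjusted p = 8.49e-06). Col5a3, a less widely expressed chain of the type, was lower, at 497, 385 and 411 in WT and 202, 260.1 and 166 in Vps15LKO (log2 fold change -1.05 ± 0.17 (SE), adjusted p = 7.34e-04). Its lower value remained negative but missed the threshold under total-read scaling, with a log2 fold change of -0.33. Col27a1, a fibrillar chain known from cartilage, was at 329, 296 and 317 in WT and 201, 232 and 239 in Vps15LKO (log2 fold change -0.49 ± 0.11 (SE), adjusted p = 0.00435), a decrease that turned to 0.24 under total-read scaling. The other 4 of the 11 fibrillar chains, Col2a1, Col11a1, Col11a2 and Col24a1, stayed below the filter, with no liver above 17.0 normalized counts.

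The promoters of Col1a2 and Col3a1 are shown because these chains contribute to the same fibrils and rose together. The RefSeq windows run from 250 bases before to 50 bases after the annotated start on GRCm38.p6, at chr6:4505368-4505667, plus strand, and chr1:45311288-45311587, plus strand. Capitals mark matches on either strand to the NF-Y letters CCAAT, to the letters GGGCGG that Sp1 binds, and to the core promoter letters TATAAA, while a match of the opposite strand reads as the reverse complement.
Col1a2: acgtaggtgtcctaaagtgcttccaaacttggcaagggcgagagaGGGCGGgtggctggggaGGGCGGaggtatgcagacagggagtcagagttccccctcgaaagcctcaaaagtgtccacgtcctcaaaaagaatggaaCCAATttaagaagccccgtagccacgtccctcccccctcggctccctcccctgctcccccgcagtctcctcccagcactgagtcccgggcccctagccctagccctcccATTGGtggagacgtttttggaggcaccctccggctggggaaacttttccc
Col3a1: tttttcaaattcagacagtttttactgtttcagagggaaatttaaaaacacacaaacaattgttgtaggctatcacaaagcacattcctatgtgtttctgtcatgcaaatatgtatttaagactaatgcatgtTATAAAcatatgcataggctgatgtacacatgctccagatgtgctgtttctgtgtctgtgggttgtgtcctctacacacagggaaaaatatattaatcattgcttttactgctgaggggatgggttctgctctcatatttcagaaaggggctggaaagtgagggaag
The Col1a2 window held 2 NF-Y and 2 Sp1 matches at 61.0% GC, while the Col3a1 window held neither, had a single core promoter match and was at 37.7% GC. No window of Col1a1 was in the table used here.

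All 5 type IV chains past the filter were called higher, under total-read scaling as well, where 33.5% and 66.7% of all genes tested were. Among them Col4a4 passed the filter only through the Vps15LKO livers and so had to differ. Col4a1 and Col4a2 form the main network of most basement membranes. Col4a1 was at 915, 896 and 1298 in WT and 5997, 6796 and 7494 in Vps15LKO (log2 fold change 2.72 ± 0.16 (SE), adjusted p = 2.98e-06), and Col4a2 was at 618, 629.5 and 944 in WT and 3682, 3739.7 and 4597 in Vps15LKO (log2 fold change 2.47 ± 0.17 (SE), adjusted p = 7.34e-06). Their folds were 6.59 and 5.56, and no WT liver came near a Vps15LKO liver in either. Col4a3, Col4a4 and Col4a5 together form the network of specialised basement membranes such as that of the kidney glomerulus, and they were scarce in WT liver. Col4a5 was at 27.8, 35.0 and 39.1 in WT and 248, 252 and 259 in Vps15LKO (log2 fold change 2.87 ± 0.16 (SE), adjusted p = 2.52e-06). Col4a3 was at 13.3, 15.0 and 25.6 in WT and 134, 89.1 and 132 in Vps15LKO (log2 fold change 2.69 ± 0.29 (SE), adjusted p = 6.41e-05). Col4a4 was at 11.9, 9.99 and 17.5 in WT and 80.9, 72.9 and 112 in Vps15LKO (log2 fold change 2.68 ± 0.28 (SE), adjusted p = 5.33e-05). No WT liver reached the lowest Vps15LKO value of any of these chains, and Col4a6, the partner of Col4a5 in other membranes, stayed below the filter at 6.63, 7.49 and 5.39 in WT and 9.93, 10.5 and 20.5 in Vps15LKO. Exons of Col4a3 share 563 bp with C430014B12Rik on the opposite strand. The library protocol marks strand, but whether the counting used it is not given in the sources used here, so reads there cannot be assigned with certainty.

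Type IV genes lie in head-to-head pairs. The starts of Col4a1 (chr8:11198423-11312826, minus strand) and Col4a2 (chr8:11312805-11449287, plus strand) are 21 bp apart in the GENCODE M21 annotation of GRCm38 and their first exons share 22 bp, those of Col4a3 and Col4a4 on chromosome 1 are 72 bp apart, and those of Col4a5 and Col4a6 on chromosome X are 1309 bp apart. The Col4a1 and Col4a2 windows, which share 78 bases of genome and are printed each on its own strand, are shown because both chains rose from starts that lie this close. They lie at chr8:11312777-11313076, minus strand, and chr8:11312555-11312854, plus strand, with matches in capitals as above.
Col4a1: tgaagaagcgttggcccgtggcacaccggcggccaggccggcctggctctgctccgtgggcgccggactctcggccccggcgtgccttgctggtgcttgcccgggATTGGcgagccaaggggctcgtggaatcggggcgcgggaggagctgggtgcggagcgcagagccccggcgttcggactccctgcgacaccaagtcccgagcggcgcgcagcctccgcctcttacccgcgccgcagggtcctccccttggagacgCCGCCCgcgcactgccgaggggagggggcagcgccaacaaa
Col4a2: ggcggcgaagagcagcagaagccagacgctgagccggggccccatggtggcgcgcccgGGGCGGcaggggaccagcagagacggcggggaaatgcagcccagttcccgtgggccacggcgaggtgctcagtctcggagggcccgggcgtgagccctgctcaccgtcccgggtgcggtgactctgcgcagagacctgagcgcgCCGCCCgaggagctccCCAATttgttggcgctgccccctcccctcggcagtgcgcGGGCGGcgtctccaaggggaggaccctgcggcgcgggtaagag
Both windows were GC-rich, at 74.0 and 73.7%, and held 1 NF-Y match each, with 1 Sp1 match for Col4a1 and 3 for Col4a2.

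All 5 type VI chains past the filter were called higher, against 33.5% of all genes tested, and they differed in size of change. Among them Col6a6 passed the filter only through the Vps15LKO livers and so had to differ. Col6a3, whose long chain carries the fragment known as endotrophin, was at 152, 181 and 221 in WT and 2561, 2826 and 3227 in Vps15LKO (log2 fold change 3.96 ± 0.15 (SE), adjusted p = 4.17e-07). Col6a1 was at 217, 295 and 278 in WT and 1014, 1156 and 1325 in Vps15LKO (log2 fold change 2.15 ± 0.14 (SE), adjusted p = 6.28e-06), and Col6a2 was at 145, 174 and 221 in WT and 811, 998 and 1076 in Vps15LKO (log2 fold change 2.42 ± 0.17 (SE), adjusted p = 7.54e-06). Col6a3 was 15.6-fold higher, against 4.42-fold and 5.37-fold for the chains with which it assembles. Col6a5 was at 45.1, 60.0 and 44.5 in WT and 166, 199 and 358 in Vps15LKO (log2 fold change 2.18 ± 0.28 (SE), adjusted p = 1.62e-04), with Vps15LKO replicate 3 well above the other livers. Col6a6 was at 11.9, 8.74 and 18.9 in WT and 23.7, 23.5 and 46.0 in Vps15LKO (log2 fold change 1.17 ± 0.38 (SE), adjusted p = 0.0244). This was the weakest call of the family: it missed the threshold without WT replicate 1, WT replicate 2 or Vps15LKO replicate 3, at log2 fold changes of 1.13, 0.93 and 0.86, and was at 0.01 under quantile normalization. Col6a6 also ends 151 bp from the end of Pik3r4 on chromosome 9, on the opposite strand, and Col6a4, which lies further along the same cluster, stayed at or below 5.30 normalized counts in every liver.

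All 3 FACIT chains past the filter were called higher, against 33.5% of all genes tested. Col14a1, a fibril-surface chain, was at 1149.6, 1305 and 1236 in WT and 2375, 2818 and 2397 in Vps15LKO (log2 fold change 1.04 ± 0.10 (SE), adjusted p = 4.13e-05), 2.05-fold higher. Col12a1, its close relative, was at 61.0, 49.96 and 60.7 in WT and 173, 169 and 227 in Vps15LKO (log2 fold change 1.70 ± 0.17 (SE), adjusted p = 4.20e-05), and Col16a1 was at 54.4, 65.0 and 33.7 in WT and 242, 254 and 349 in Vps15LKO (log2 fold change 2.47 ± 0.25 (SE), adjusted p = 4.91e-05). The genotypes were apart for all 3, and 6 of the 9 FACIT chains stayed below the filter. Whether FACIT chains differ from fibrillar chains in their response was not tested.

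Outside these classes the chains were scarce apart from the multiplexins and Col13a1. Col8a1, a short-chain collagen of vessel walls, was at 22.5, 16.2 and 20.2 in WT and 58.0, 48.6 and 117 in Vps15LKO (log2 fold change 1.77 ± 0.33 (SE), adjusted p = 0.0015). Col23a1, a transmembrane chain, was at 7.96, 7.49 and 6.74 in WT and 22.1, 25.1 and 51.6 in Vps15LKO (log2 fold change 1.92 ± 0.37 (SE), adjusted p = 0.00175), and it missed the threshold under quantile normalization with a log2 fold change of 0.54. In both genes Vps15LKO replicate 3 was more than any other liver by a wide margin. Col13a1, another transmembrane chain, was at 149, 144 and 108 in WT and 80.2, 94.0 and 90.5 in Vps15LKO (log2 fold change -0.58 ± 0.17 (SE), adjusted p = 0.0133), but it was at 0.14 under total-read scaling. Without Vps15LKO replicate 1 it missed the threshold at a log2 fold change of -0.51, which left 3 chains called lower. Col7a1, Col26a1 and Col28a1, which form anchoring fibrils or belong to no other class, stayed below the filter, and Col26a1 had no read in any library, a count of 0 that allows up to 3 reads a library by counting error alone.

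Col18a1 moved the other way from most of the family. It was at 26388, 27561 and 25694 in WT and 11355, 12188 and 9519 in Vps15LKO (log2 fold change -1.28 ± 0.15 (SE), adjusted p = 1.24e-04), 2.42-fold lower in Vps15LKO. It held more reads than any other chain in all WT livers and in Vps15LKO replicates 1 and 2, while Col3a1 held more in Vps15LKO replicate 3. The difference kept its sign and its call under total-read scaling, at -0.55, and missed the threshold under quantile normalization, at -0.13. Col15a1, the other multiplexin and a chain of vascular basement membranes, was at 196, 224 and 267 in WT and 1028, 1069.7 and 1589 in Vps15LKO (log2 fold change 2.40 ± 0.18 (SE), adjusted p = 1.09e-05). The multiplexins therefore differed in opposite directions. Markers of hepatocytes moved with Col18a1: 8 of 9 tested were called lower, under total-read scaling as well, where 33.0% and 11.1% of all genes were. Their sum ran from 2891240.0 to 3316326 in WT and 814809.8 to 1241492 in Vps15LKO. Most of that sum was Alb, the marker that was not called, with means of 2183720 in WT and 792222 in Vps15LKO (log2 fold change -1.48 ± 1.38 (SE)). The part of hepatocyte markers in the result was not tested.

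The Col18a1 gene (chr10:77052178-77166548, minus strand) has more than a single start in RefSeq. Its windows are shown because the chain held most collagen reads of WT liver and changed against most of the family, first the start inside the gene at chr10:77113656-77113955, minus strand, and then the start at chr10:77166481-77166780, minus strand, at the beginning of the gene.
Col18a1, inner start: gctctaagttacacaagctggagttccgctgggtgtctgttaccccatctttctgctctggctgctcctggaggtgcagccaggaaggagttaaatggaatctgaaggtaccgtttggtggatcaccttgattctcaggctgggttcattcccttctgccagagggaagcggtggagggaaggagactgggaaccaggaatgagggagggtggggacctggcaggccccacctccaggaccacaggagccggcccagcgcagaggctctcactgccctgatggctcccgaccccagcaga
Col18a1, outer start: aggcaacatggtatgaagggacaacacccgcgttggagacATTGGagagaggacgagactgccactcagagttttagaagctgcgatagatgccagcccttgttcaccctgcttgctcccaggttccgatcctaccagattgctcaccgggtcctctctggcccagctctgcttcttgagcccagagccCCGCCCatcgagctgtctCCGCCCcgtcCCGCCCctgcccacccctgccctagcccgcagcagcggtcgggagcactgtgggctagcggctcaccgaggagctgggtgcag
The inner window held none of the letters searched, and the outer window held 1 NF-Y and 3 Sp1 matches. Gene counts do not tell which start was used.

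Across the family, 38 RefSeq windows of 35 chains could be read, and 9 chains had no window. CCAAT was in 13 of 38 windows (34.2%), against 37.4% of all 32851 windows of the same length, and TATAAA was in 5 (13.2%), against 13.6%. GGGCGG was in 23 windows (60.5%), against 35.7%, and the median GC content was 59.8% in the chains' windows and 52.7% in all. CACGTG, the palindromic E-box that Bmal1 and Clock bind, was in 0 windows of collagen chains and in 7.15% of all. Both strands were searched, overlapping matches of different motifs were counted for each, and a match is a description of the letters only.

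Col4a3bp, the ceramide transfer protein, was at 672, 707 and 705 in WT and 542, 520.2 and 411 in Vps15LKO (log2 fold change -0.51 ± 0.12 (SE), adjusted p = 0.00473), and at 0.22 under total-read scaling.

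The other 19 chains stayed below the filter, and no liver held more than 35.8 normalized counts of any. Col9a3, a FACIT chain of cartilage, was at 2.65, 2.50 and 0 in WT and 23.7, 14.6 and 28.3 in Vps15LKO, with the genotypes apart, but 234 bp of its exons overlap Tcfl5 on the opposite strand. Col20a1 was at 35.8, 18.7 and 35.0 in WT and 16.8, 12.2 and 14.1 in Vps15LKO, and Col25a1, a transmembrane chain, was at 5.30, 6.25 and 5.39 in WT and 1.53, 0 and 1.41 in Vps15LKO, both with every Vps15LKO liver below every WT liver. The genotypes were also apart for Col4a6, Col9a2, Col11a2, Col19a1 and Col22a1, higher in Vps15LKO, and for Col10a1, lower in Vps15LKO. These levels rest on few reads, since a read counted for 1.25 to 1.35 units in the WT libraries and 0.707 to 0.810 in the Vps15LKO libraries.

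Shares of reads do not depend on the size factors. Of all reads on genes, collagen chains together took 0.138, 0.150 and 0.156% in WT and 0.365, 0.378 and 0.457% in Vps15LKO, a ratio of 2.70. Every Vps15LKO liver held more than every WT liver, and the exact two-sided permutation test gave p = 0.1, the smallest that 3 against 3 livers allow, with an adjusted p of 0.11 over 11 shares. Col18a1 alone was 79.3 ± 3.02% of all collagen reads in WT and 20.4 ± 3.50% in Vps15LKO (SD, n = 3). Its share of all reads was 0.117 ± 0.00505% in WT and 0.0802 ± 0.00488% in Vps15LKO (SD, n = 3), a ratio of 0.684. Without Col18a1, a split chosen after its values were seen, the remaining 43 chains took 0.0308 ± 0.00611% in WT and 0.320 ± 0.0545% in Vps15LKO (SD, n = 3), a ratio of 10.4.

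By class the ratio of mean shares, Vps15LKO to WT, was 14.2 for fibrillar, 12.6 for type VI, 10.1 for type IV and 3.67 for FACIT chains. It was 5.01 for short-chain and 1.44 for transmembrane chains, both of which took few reads, and 0.755 for multiplexins, the class of Col18a1, where every Vps15LKO liver was below every WT liver. On the log2 scale the transmembrane ratio lies below the 0.70 to which the median of all genes moves under total-read scaling, and on the deposited scaling the summed normalized counts of that class overlapped, at 121 to 166 in WT and 113 to 149.9 in Vps15LKO. The shares did not overlap between the genotypes in any of these classes (exact two-sided permutation test, p = 0.1 each, adjusted p = 0.11). Of all reads, fibrillar chains took 0.0116 ± 0.00304% in WT and 0.165 ± 0.0283% in Vps15LKO (SD, n = 3). The 3 chains of Col7a1, Col26a1 and Col28a1 together had 3 to 14 reads a library, too few for a comparison (exact two-sided permutation test, p = 0.2).

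**Figure D2:**
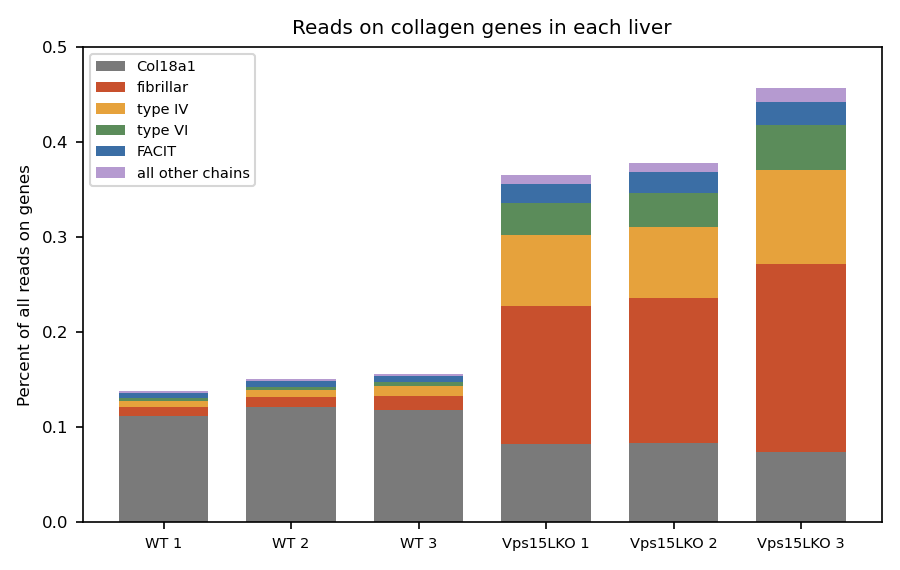
Percent of all reads on genes that fell on collagen genes in each library, stacked by Col18a1, 4 classes and all other chains, with no size factor applied. The bars reach 0.138 to 0.156% in the WT livers, mostly Col18a1, and 0.365 to 0.457% in the Vps15LKO livers, where fibrillar and type IV chains make up most of the bar.

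The mix of the remaining chains shifted as well. Of reads on chains other than Col18a1, Col14a1 took 18.0 ± 2.61% in WT and 5.86 ± 0.843% in Vps15LKO, while Col3a1 took 12.6 ± 2.27% and 23.7 ± 0.625% and Col1a1 4.25 ± 0.760% and 14.01 ± 0.902% (SD, n = 3). Each of these shares was apart between the genotypes (exact permutation p = 0.1, unadjusted and the smallest possible). Col4a1 held nearly the same part of a larger total, 14.9 ± 1.01% and 15.5 ± 0.191%, with overlapping livers (exact permutation p = 0.4). The order of levels per length depends on the length used. In normalized counts per kb of the longest annotated transcript, the WT order was Col18a1 at 4745 ± 169, Col14a1 at 191 ± 12.1, Col3a1 at 160.4 ± 55.1 and Col4a1 at 157 ± 34.3 (SD, n = 3), of which the last 3 were not separated beyond their spread. Per kb of merged exons, which can include retained introns, the WT levels were 3781 ± 134 for Col18a1, 175 ± 11.1 for Col14a1, 139 ± 30.4 for Col4a1, 110.3 ± 27.9 for Col4a2 and 90.9 ± 31.2 for Col3a1. Per kb of the longest transcript the Vps15LKO order was Col18a1 at 1969.7 ± 244, Col3a1 at 1855 ± 195, Col1a1 at 1033 ± 184, Col4a1 at 1022 ± 113 and Col1a2 at 641 ± 76.0. Per kb of merged exons the Vps15LKO order was Col18a1 at 1569.7 ± 195, Col3a1 at 1051 ± 111, Col1a1 at 933 ± 166, Col4a1 at 906 ± 100.4, Col4a2 at 605 ± 77.5, Col14a1 at 361 ± 35.6 and Col1a2 at 276 ± 32.7. In Vps15LKO, Col18a1 and Col3a1 lay within their spread of each other per kb of the longest transcript but apart per kb of merged exons, while Col1a1 and Col4a1 lay within their spread on both scales.

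Pairs of chains, most of which assemble together, were compared as ratios within each library, which no scaling of the library can change. Of 12 ratios 7 could be given, since the other 5 had a library with fewer than 10 reads on a chain, and each of the 7 was apart between the genotypes at an exact two-sided permutation p of 0.1, the smallest possible, which is also the adjusted p. The ratio Col1a1/Col1a2, in reads per kb of merged exons, was 1.58, 1.51 and 1.62 in WT and 3.27, 3.22 and 3.62 in Vps15LKO, a log2 difference of 1.10 ± 0.06 (SE). Type I collagen is usually built of a pair of Col1a1 chains and a single Col1a2 chain. The merged exons of Col1a2 span 12426 bases, against 5348 for its longest transcript. Per kb of the longest transcript the ratio Col1a1/Col1a2 was 0.749 ± 0.0270 in WT and 1.61 ± 0.103 in Vps15LKO (SD, n = 3), so its level depends on the length used while its difference does not. Col3a1/Col1a1 was 1.99 ± 0.0856 in WT and 1.14 ± 0.0965 in Vps15LKO, a log2 difference of -0.81 ± 0.08 (SE). Per kb of the longest transcript it was 3.17 ± 0.136 in WT and 1.81 ± 0.154 in Vps15LKO (SD, n = 3).

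Within type VI collagen, whose filaments hold the Col6a1, Col6a2 and Col6a3 products together, Col6a3/Col6a1 was 0.257, 0.225 and 0.291 in WT and 0.925, 0.895 and 0.891 in Vps15LKO, a log2 difference of 1.82 ± 0.11 (SE). Per kb of the longest transcript it was 0.286 ± 0.0369 in WT and 1.001 ± 0.0202 in Vps15LKO (SD, n = 3). Col6a1/Col6a2 moved less, from 2.83 ± 0.421 to 2.31 ± 0.0915, with the highest Vps15LKO value just below the lowest WT value. Col4a1/Col4a2 went from 1.26 ± 0.0466 to 1.5 ± 0.0960, a log2 difference of 0.25 ± 0.06 (SE), and Col5a1/Col5a2 from 2.85 ± 0.613 to 1.47 ± 0.168, a log2 difference of -0.94 ± 0.21 (SE). The levels of these ratios depend on the length as well. Per kb of the longest transcript Col6a1/Col6a2 went from 1.78 ± 0.265 to 1.45 ± 0.0576, Col4a1/Col4a2 from 1.39 ± 0.0513 to 1.65 ± 0.106 and Col5a1/Col5a2 from 1.99 ± 0.428 to 1.03 ± 0.117 (SD, n = 3). Col15a1/Col18a1, chains of the same class that do not assemble together, differed most, by 3.68 ± 0.33 (SE) on the log2 scale.

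**Figure D3:**
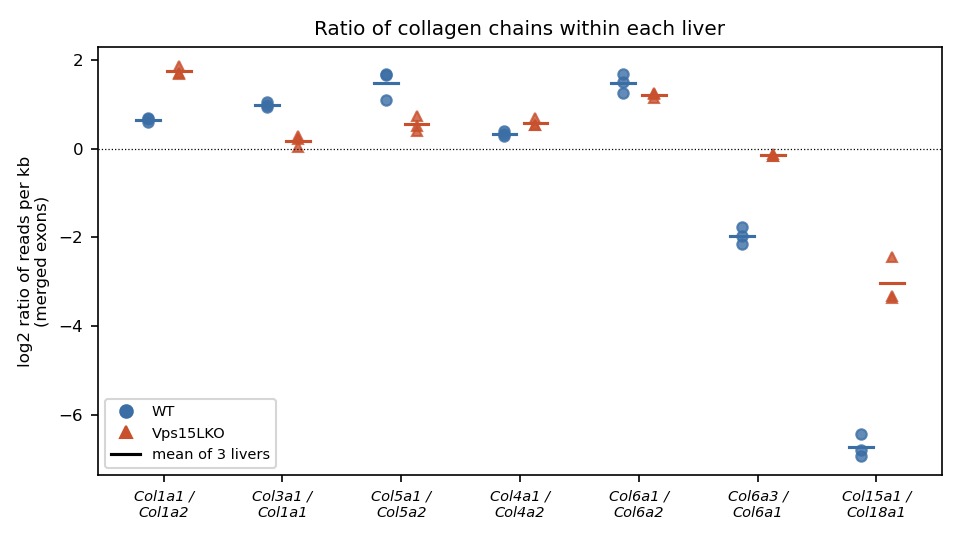
Log2 ratio of reads per kb of merged exons for 7 pairs of collagen chains in each liver, with circles for WT, triangles for Vps15LKO and lines at the means of 3 livers. The genotypes are apart for each pair, widest for Col15a1/Col18a1 and Col6a3/Col6a1 and narrowest for Col6a1/Col6a2 and Col4a1/Col4a2.

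The counts for genes around collagen stand beside the shares over all genes tested, of which 33.5% were called higher and 33.0% lower, or 66.7% and 11.1% under total-read scaling. Plod2, Lox and Itga2 passed the filter only through the Vps15LKO livers and Omd only through the WT livers, so they had to differ, and the counts and medians describe the genes that passed and support no change of a group. Of 18 tested genes that fold and modify collagen in the endoplasmic reticulum, 11 were called higher and 4 lower with a median log2 fold change of 0.76. Under total-read scaling 15 were called higher and none lower. The collagen chaperone Serpinh1 (Hsp47) was at 169.7, 179.9 and 241 in WT and 984, 1187 and 1320.5 in Vps15LKO (log2 fold change 2.56 ± 0.16 (SE), adjusted p = 4.37e-06). Plod2, which hydroxylates lysines of the telopeptides, was at 13.3, 11.2 and 13.5 in WT and 111, 123 and 120.2 in Vps15LKO (log2 fold change 3.13 ± 0.19 (SE), adjusted p = 3.83e-06). Fkbp10, its partner and a prolyl isomerase, was at 38.5, 37.5 and 36.4 in WT and 272, 284 and 364 in Vps15LKO (log2 fold change 2.99 ± 0.15 (SE), adjusted p = 1.63e-06). These genes act mainly on collagen and were apart between the genotypes, as were 73.2% of all tested genes. P4ha1, a catalytic subunit of prolyl 4-hydroxylase, was at 158, 146 and 149.6 in WT and 257, 371 and 333 in Vps15LKO (log2 fold change 1.06 ± 0.15 (SE), adjusted p = 2.75e-04). The enzyme's other subunit, P4hb, is protein disulfide isomerase and serves most secreted proteins. It was at 26858, 25268 and 28455 in WT and 16631, 17978 and 15910.2 in Vps15LKO (log2 fold change -0.67 ± 0.15 (SE), adjusted p = 0.00439), a decrease that turned to 0.05 under total-read scaling and to 0.53 under quantile normalization. Tmem38b, an endoplasmic reticulum cation channel, was at 889.7, 756 and 665 in WT and 489, 541 and 465 in Vps15LKO (log2 fold change -0.62 ± 0.12 (SE), adjusted p = 0.00211), and at 0.11 under total-read scaling.

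Of 12 tested export genes, 2 were called higher (16.7%, against 33.5% of all genes) and 5 lower with a median log2 fold change of -0.24. Under total-read scaling 7 were called higher and 1 lower, where 66.7% of all genes were called higher, so no count here is read as particular to export genes. Sar1b, a GTPase of the COPII coat, was at 3639.7, 2780.5 and 2869.9 in WT and 1082, 1318 and 881 in Vps15LKO (log2 fold change -1.51 ± 0.16 (SE), adjusted p = 6.78e-05) and stayed lower under total-read scaling, at -0.78. Mia2, a cargo receptor at endoplasmic reticulum exit sites, was at 8063, 8000.5 and 6774 in WT and 4083, 4078 and 3510.2 in Vps15LKO (log2 fold change -0.97 ± 0.12 (SE), adjusted p = 1.44e-04), and its relative Mia3 (Tango1), the receptor for procollagen, which was named after its values were seen, had a log2 fold change of -0.95 ± 0.12 (adjusted p = 1.89e-04). Both kept their sign but missed the threshold under total-read scaling, at -0.24 and -0.22, and Mia2 missed it under quantile normalization too, at -0.23. Creb3l1 (Oasis), a membrane-bound transcription factor that drives collagen secretion genes, was at 49.1, 47.5 and 63.4 in WT and 236, 231 and 264 in Vps15LKO (log2 fold change 2.18 ± 0.16 (SE), adjusted p = 8.21e-06), and the related Creb3l2 had a log2 fold change of 0.41 ± 0.11 (adjusted p = 0.0102).

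Of 11 tested genes of procollagen processing and cross-linking, 9 were called higher, Lox among them, and 1 lower, with a median log2 fold change of 2.32, and 9 were called higher under total-read scaling as well. Lox, the lysyl oxidase that starts cross-linking, was at 6.63, 13.7 and 9.44 in WT and 207, 241 and 293 in Vps15LKO (log2 fold change 4.54 ± 0.27 (SE), adjusted p = 3.30e-06). Its relatives Loxl1 and Loxl2 were at log2 fold changes of 3.31 ± 0.16 and 3.02 ± 0.11 (adjusted p = 1.26e-06 and 4.17e-07). Loxl2 was at 95.5, 91.2 and 106 in WT and 784, 746 and 872 in Vps15LKO, so every Vps15LKO liver was well above every WT liver. Adamts14 and Adamts2, which remove the amino-terminal propeptides, were at 3.19 ± 0.19 and 2.32 ± 0.16 (adjusted p = 3.83e-06 and 7.20e-06). Pcolce, an enhancer of carboxy-terminal trimming, was at 1.88 ± 0.13 (adjusted p = 5.97e-06). The protease it enhances, Bmp1, was at 2677, 2633 and 2492 in WT and 1606, 1701 and 1838 in Vps15LKO (log2 fold change -0.60 ± 0.09 (SE), adjusted p = 4.30e-04), a decrease that turned to 0.12 under total-read scaling and missed the threshold under quantile normalization, at -0.17.

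Of the small proteoglycans that bind fibrils, 6 of 8 tested were called higher and 1, Omd, lower, with a median log2 fold change of 1.16, and Kera and Epyc had no read in any library. Lum (lumican) was at 168, 174 and 222 in WT and 1292, 1476 and 1730.0 in Vps15LKO (log2 fold change 2.99 ± 0.15 (SE), adjusted p = 1.29e-06), Bgn (biglycan) at 2763, 2840.4 and 2856 in WT and 10806, 11026 and 14128 in Vps15LKO (log2 fold change 2.08 ± 0.13 (SE), adjusted p = 4.12e-06) and Dcn (decorin) at 3856, 3762 and 3131 in WT and 6838, 7025 and 6768 in Vps15LKO (log2 fold change 0.95 ± 0.11 (SE), adjusted p = 1.16e-04). Podn (podocan) had a log2 fold change of 1.26 ± 0.18 (adjusted p = 2.80e-04). Omd (osteomodulin) was lower, at 42.4, 31.2 and 49.9 in WT and 10.7, 8.91 and 12.02 in Vps15LKO (log2 fold change -1.85 ± 0.28 (SE), adjusted p = 4.37e-04), and stayed lower under total-read scaling.

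Collagen receptors were called higher in 6 of 7 tested genes, Itga2 among them, and lower in none, with a median log2 fold change of 2.52. Itga2, an integrin alpha chain for collagen that is typical of epithelium and platelets, was at 2.65, 4.996 and 1.35 in WT and 133, 111 and 161 in Vps15LKO (log2 fold change 5.17 ± 0.37 (SE), adjusted p = 8.28e-06), a fold that depends on the few WT reads. Ddr1, the epithelial discoidin domain receptor kinase, was at 49.1, 47.5 and 51.2 in WT and 1245, 1068 and 1551 in Vps15LKO (log2 fold change 4.66 ± 0.14 (SE), adjusted p = 2.29e-07), while Ddr2, its mesenchymal counterpart, was at 117, 137 and 120.0 in WT and 249.7, 283 and 272 in Vps15LKO (log2 fold change 1.10 ± 0.12 (SE), adjusted p = 7.25e-05). Mrc2 (Endo180), which takes up collagen for degradation, was at 33.1, 51.2 and 41.8 in WT and 571, 609 and 687 in Vps15LKO (log2 fold change 3.87 ± 0.17 (SE), adjusted p = 9.47e-07). Itga1, the collagen integrin of stellate and endothelial cells, was at 669.6, 796 and 834 in WT and 864, 907 and 863 in Vps15LKO with a log2 fold change of 0.20 ± 0.10 (adjusted p = 0.116) and was not called, but it was called higher under total-read, upper-quartile and quantile scaling.

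**Figure D4:**
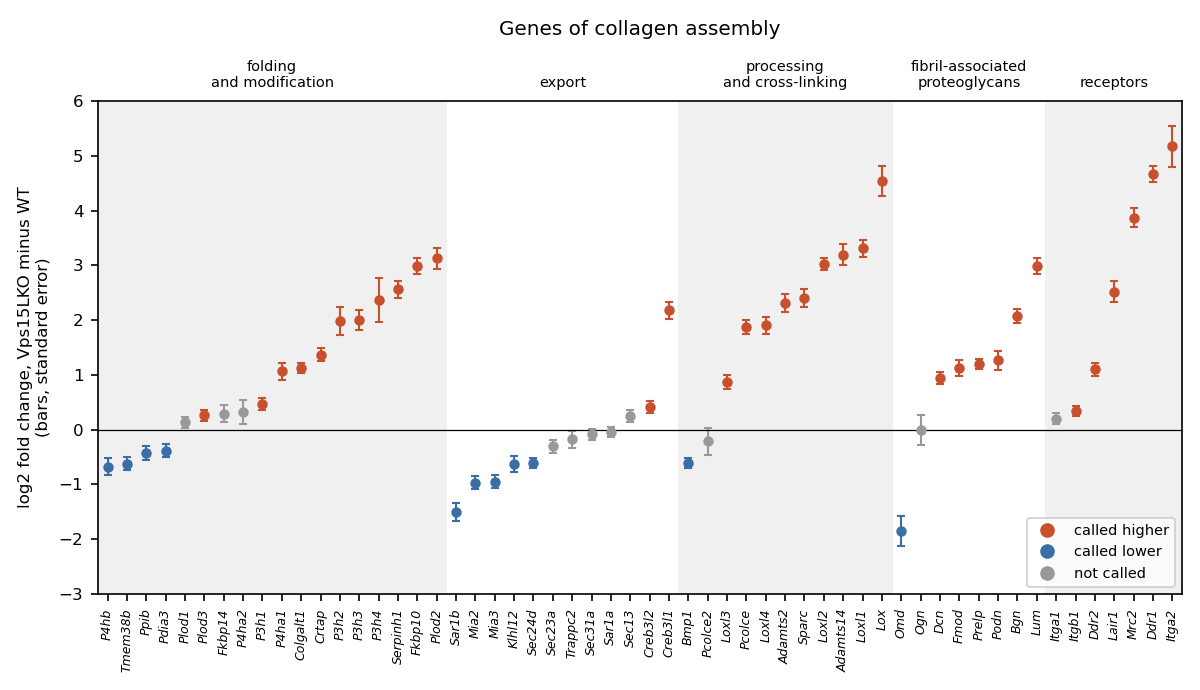
Log2 fold change, Vps15LKO minus WT, with its standard error for every tested gene of 5 lists around collagen, ordered within each list, in red where called higher, blue where called lower and grey where not called. Most genes of processing, proteoglycans and receptors lie above 0, those of export lie on both sides, and the blue points apart from Sar1b and Omd lose their call under total-read scaling.

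Markers of cells that make or border collagen were counted against the same shares over all genes, 33.5% called higher and 33.0% lower. Timp1 of the myofibroblast, Clec3b and Pi16 of the portal fibroblast, Cftr and Cldn4 of the cholangiocyte and Trem2 of the macrophage markers passed the filter only through the Vps15LKO livers and so had to differ. Of 12 stellate cell markers 9 were called higher and 2 lower, with sums of normalized counts from 7552 to 8556 in WT and 13611 to 13916 in Vps15LKO, and 10 were called higher and none lower under total-read scaling. Of 8 tested markers of activated myofibroblasts 7 were called higher, summing to 788 to 938 in WT and 2847 to 3877 in Vps15LKO, and of 11 portal fibroblast markers 9 were called higher and 1 lower, summing to 1017 to 1185 in WT and 3914 to 5511 in Vps15LKO. All 11 tested cholangiocyte markers were called higher, summing to 2351 to 2549.8 in WT and 17012 to 29674 in Vps15LKO. Most of the Vps15LKO sum was Spp1 alone, at 562, 493 and 599 in WT and 13401, 10402 and 20496 in Vps15LKO. Of 12 macrophage markers 10 were called higher and none lower, summing to 9791 to 10913 in WT and 30462 to 35746 in Vps15LKO. Sinusoidal endothelial markers went both ways, with 3 of 12 called higher and 9 lower and sums of 13634 to 14857 in WT and 8813 to 11680.3 in Vps15LKO, but 6 were called higher and 1 lower under total-read scaling, where 66.7% and 11.1% of all genes were. Within Vps15LKO, replicate 3 was the highest liver for 18 of the 21 chains called higher, and within WT replicate 3 was the highest for 14 of them. Replicate 3 was also the highest Vps15LKO liver in the sums of stellate, myofibroblast, portal fibroblast and cholangiocyte markers, and the lowest Vps15LKO liver in those of macrophage, sinusoidal endothelial and hepatocyte markers. The stellate sums of the Vps15LKO livers lay close together, at 13799, 13611 and 13916, and the single markers were split. Vps15LKO replicate 3 was highest for Hand2, Pdgfrb, Des, Rgs5 and Cygb but lowest for Lrat, Reln, Lhx2, Ngfr, Ecm1 and Colec10. Within WT it was the highest only in the myofibroblast sum of these 7 and the lowest in the stellate, sinusoidal endothelial and hepatocyte sums. The part that any of these cell types had in the collagen values was not tested.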

How the data were processed

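The authors extracted RNA from liver, enriched it for polyA, prepared strand-marking libraries and sequenced them on a nanoball platform. Per the methods, reads were filtered with SOAPnuke, aligned to GRCm38 (mm10) by HISAT2 and assigned to genes by featureCounts of Subread, and DESeq2, edgeR and limma-voom served for normalization and group comparison. The deposited table is named as the DESeq2-normalized one. Strand and multi-mapping settings are not given in the sources used here. The deposited values are normalized counts, a signal in which the authors divided each library's read counts by a single size factor. Every value was a whole multiple of its library's smallest value (100% within 0.001), so reads were recovered.

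Log2(normalized count + 1) was tested for genes that reached 20 in 3 or more livers with limma 3.58.1 (trend, R 4.3.3) and Benjamini-Hochberg adjustment over 15430 genes, so a fold understates the change of low genes. Calls required an adjusted p below 0.05 and 1.2-fold or more. Shares and ratios used recovered reads and exact permutation tests. Symbols and lengths came from GENCODE M21, which matched 55227 of 56305 identifiers, and promoters from RefSeq.

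Every member past the filter is named. Of each pathway list the 3 called genes with the largest rise and the 2 with the largest fall are named, as are 12 genes of known role fixed by name, some of which that rule also takes. The rule that took the members used no values, but members, lists and markers were chosen with earlier results of these data known. Of 10 hepatocyte markers, 9 had a row under the symbol used. Alternatives were other pseudocounts, filters, scalings, thresholds and tools (edgeR 4.0.16, DESeq2 1.42.0), each liver left out, and a replicate block. Replicate numbers did not pair the livers across genotypes, and each library counted as a sample because the methods count an individual mouse as n. Same-genotype libraries differed by far more than sampling noise, which cannot tell separate livers from repeat libraries of the same liver.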

Additional observations from a re-analysis of the deposited data

How the results depend on the processing

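The 21 chains called higher kept their direction in every alternative run, and 19 of them, all but Col6a6 and Col23a1, also kept their call wherever they were tested. The number of chains called lower was 4, but 7 with no filter on low values, 1 under total-read scaling and 2 at a fold of at least 2. Folding genes called lower were 0 under total-read scaling and at a fold of at least 2, 2 under upper-quartile scaling, 1 under quantile normalization and 2 to 4 with a liver left out, the 2 being without Vps15LKO replicate 1. Export genes called higher were 7 under total-read scaling, 4 under quantile normalization and 1 at a fold of at least 2, and export genes called lower were 1 under total-read scaling and at a fold of at least 2. Processing genes called lower were 0 under total-read scaling and at a fold of at least 2, and proteoglycans called lower were 0 when each liver had to reach 20, where Omd is not tested. Under total-read scaling the log2 fold change turned to 0.14 for Col13a1, 0.24 for Col27a1, 0.22 for Col4a3bp, 0.19 for Pik3r4, 0.0528 for P4hb, 0.11 for Tmem38b and 0.12 for Bmp1, and under quantile normalization to 0.53 for P4hb. Scaling moved the median log2 fold change of all genes to 0.70 (total reads), 0.11 (upper quartile) and -0.10 (quantile). Under quantile normalization single genes moved by more than that and in both directions, and the cause was not tested. Shares and ratios kept their direction without any liver, with the other denominator and with the other length.

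The count tests on recovered reads called 5170 genes higher and 5150 lower (edgeR), 5023 and 5003 (DESeq2) and 5143 and 5151 (voom). With no filter 6853 of 29328 genes were called higher and 5289 lower, and at a fold of at least 2 the counts were 3228 and 1957. Same-numbered livers did not deviate together, with correlations of -0.01, -0.011 and 0.049. The replicate block called 5065 genes higher and 4983 lower, and it left 21 chains higher and 4 lower. With 3 livers a genotype, exact tests of shares and ratios cannot go below p = 0.1, and chains with few reads in WT have folds that depend on the pseudocount.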
